A study of Mus musculus with 2 samples.

Results

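The gene set described here comprises the inflammasome and interleukin-1 genes Nlrp3, Pycard, Casp1, Casp4, Gsdmd, Il1b, Il1a, Il18, Il1rn and Il1r1, which are 10 of the 31053 genes counted in each library. They were taken by gene symbol from the deposited gene lists, and their unique molecular identifiers (UMIs, 1 per captured transcript) were summed over each class of cells in each library, to show which cells hold the sensor, the adaptor, the caspases, the cytokines and the receptor. All 10 had UMIs in the NaIO3 library, and 9 had them in the other (PBS), all except Il1rn. Retinal cells were profiled by droplet-based single-cell RNA sequencing on the 10x platform. In the first group, mice received 20 mg per kg of sodium iodate (NaIO3) by intravenous injection, an oxidant that injures the retinal pigment epithelium and in turn the photoreceptors, and the eyes were taken on day 7. In the second group, mice received the same volume of the vehicle, phosphate-buffered saline (PBS), and were sampled alike. Each group was 1 library made from the pooled retinas of 6 mice, and the strain is given only as C57. Sex and age were not given in the sources used here. The labels call both libraries CD11b+ microglia, whereas magnetic selection with CD11b beads is described for the NaIO3 cells alone. With 1 library per group there is no replicate check and no test. All ranges in parentheses are exact 95% intervals that cover counting error only.

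An inflammasome is a protein platform on which a sensor such as NLRP3 recruits the adaptor ASC, encoded by Pycard, and through it caspase-1. Active caspase-1 cleaves the precursors of IL-1β and IL-18 and cuts gasdermin D, whose freed end forms pores in the cell membrane, while caspase-11 (Casp4 in the mouse) cuts gasdermin D after sensing bacterial lipopolysaccharide. IL-1α and IL-1β signal through IL1R1, and the IL-1 receptor antagonist, encoded by Il1rn, blocks that receptor. Transcript counts say nothing of cleavage or secretion, which are the steps at which this pathway is switched on.

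After quality filters, 5573 cells remained in the PBS library and 9261 in the NaIO3 library, with medians of 2486 and 2930 UMIs per cell. Rod-like cells, recognised by phototransduction transcripts, made up 93.1% of PBS and 59.0% of NaIO3 cells, so neither library matched its label of microglia as a whole. Microglia-like cells, gated on C1q transcripts, numbered 10 in PBS (31815 UMIs in sum) and 1409 in NaIO3 (12044257 UMIs). A UMI for P2ry12, Tmem119 or Sall1, which mark resident microglia, was found in 667 of the latter, for the border macrophage genes Mrc1, Cd163 or Lyve1 in 142, and for the monocyte genes Ly6c2 or Ccr2 in 336. The NaIO3 library also held 66 dendritic-like cells, 48 T- or NK-like cells, 370 Müller-like cells (the radial glia of the retina), 122 vascular-like cells, 5465 rod-like, 264 cone-like and 499 bipolar-like cells. In PBS there were 32 Müller-like, 136 cone-like and 62 bipolar-like cells and 3 vascular-like cells, and none passed the dendritic or T and NK gates. A set of 22 NaIO3 cells gated on monocyte markers was led by Plac8, but 4 of its 10 leading genes were the class II genes H2-Eb1, H2-Aa, H2-Ab1 and Cd74, so it carries no cell type name here and is called the Plac8-led set. The limits of the gates were set after seeing how the markers were distributed, and 238 of the 1865 NaIO3 immune cells lay near the C1q limit. In 686 NaIO3 cells and 115 PBS cells the markers were mixed, and these were left out of the classes. Such cells passed more than 1 gate, passed 1 gate with rod markers over a limit, or held C1q beside T, NK or dendritic markers. Of the NaIO3 barcodes 180 of 9441 were removed as doublets. The caller marked 0 of 5573 in PBS, so no doublet was removed there, and whether any remain was not tested. With at least 1500 UMIs and 800 genes per cell it marked 1 of 7255 in NaIO3. The libraries shared 24 barcodes, none of them microglia-like.

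A promoter of the sensor, of each cytokine and of the receptor is printed so that a reader can set the sequences beside the levels. They are 300 bases of RefSeq sequence (build GRCm38.p6), from 250 before to 50 after an annotated transcription start, read 5′ to 3′ on the strand of the gene, and 9 of the 10 genes had an entry, all except Gsdmd. Capitals mark the letters of any motif that was searched on both strands: GAGGAA for PU.1, a factor that specifies myeloid cells, TGANTCA for AP-1, TTGCNCAA for C/EBP, TATAAA for the TATA box, and the motifs of NF-kB and of interferon regulatory factors. The promoters of Il1b (chr2:129371090-129371389, minus strand), Il1a (chr2:129309923-129310222, minus strand), Nlrp3 (chr11:59542436-59542735, plus strand, the first of 2 annotated starts), Il18 (chr9:50554450-50554749, plus strand) and Il1r1 (chr1:40224830-40225129, plus strand, the first of 2) read as follows.
Il1b: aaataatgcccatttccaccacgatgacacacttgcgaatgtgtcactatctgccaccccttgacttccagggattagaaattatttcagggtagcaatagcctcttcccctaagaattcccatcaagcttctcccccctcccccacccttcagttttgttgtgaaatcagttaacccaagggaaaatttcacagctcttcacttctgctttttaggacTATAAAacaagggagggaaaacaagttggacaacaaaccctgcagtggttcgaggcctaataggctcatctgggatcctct
Il1a: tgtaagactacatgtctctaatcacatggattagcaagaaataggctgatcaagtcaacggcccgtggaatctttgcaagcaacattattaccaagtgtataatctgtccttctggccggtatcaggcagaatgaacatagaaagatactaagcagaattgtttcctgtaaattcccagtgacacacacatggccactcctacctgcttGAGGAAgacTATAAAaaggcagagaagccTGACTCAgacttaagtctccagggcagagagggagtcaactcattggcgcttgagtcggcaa
Nlrp3: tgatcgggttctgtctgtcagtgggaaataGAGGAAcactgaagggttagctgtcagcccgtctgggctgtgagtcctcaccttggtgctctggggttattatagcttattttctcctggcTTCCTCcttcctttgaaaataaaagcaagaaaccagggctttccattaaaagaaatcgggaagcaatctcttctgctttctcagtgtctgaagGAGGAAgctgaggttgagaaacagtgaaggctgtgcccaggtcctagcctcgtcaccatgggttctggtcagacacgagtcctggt
Il18: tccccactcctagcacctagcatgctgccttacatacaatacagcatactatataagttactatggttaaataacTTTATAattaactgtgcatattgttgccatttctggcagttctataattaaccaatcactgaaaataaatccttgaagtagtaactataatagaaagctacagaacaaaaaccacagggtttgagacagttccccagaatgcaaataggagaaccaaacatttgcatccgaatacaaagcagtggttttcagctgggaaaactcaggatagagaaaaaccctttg
Il1r1: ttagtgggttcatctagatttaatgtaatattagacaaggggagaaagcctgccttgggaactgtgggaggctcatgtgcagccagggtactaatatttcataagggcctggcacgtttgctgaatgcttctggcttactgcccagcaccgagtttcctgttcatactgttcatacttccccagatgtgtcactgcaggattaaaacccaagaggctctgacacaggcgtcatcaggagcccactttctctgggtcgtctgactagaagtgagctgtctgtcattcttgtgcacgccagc
The Il1b window held only a TATAAA, 31 bases before the start, and Il1a held a TATAAA at 32 bases, a GAGGAA at 41 bases and a TGANTCA at 12 bases before it. The Nlrp3 window held 3 matches to GAGGAA, at 220, 129 and 36 bases before the start, 1 of them on the opposite strand. The window of the second Nlrp3 start held no GAGGAA and 1 match to the NF-kB motif, 186 bases before that start. In the Il18 window the 1 match was a TATAAA on the opposite strand, 175 bases upstream. The printed Il1r1 window held no match, and that of its second start held 1 match to the NF-kB motif, 232 bases upstream. Among the 32851 promoters of this length in the table, 28.3% held GAGGAA, 7.81% TGANTCA, 13.6% TATAAA, 2.94% TTGCNCAA, 8.46% the NF-kB motif and 3.44% the interferon regulatory factor motif, so single matches to GAGGAA were common. These are letter matches, and binding was not measured.

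Nlrp3, the sensor (chr11:59541568-59566956, plus strand), was an immune-cell transcript in the NaIO3 library. Microglia-like cells held 515 Nlrp3 UMIs, or 42.8 CPM, that is UMIs of the gene per 1000000 UMIs of the class (39.1 to 46.6). The level was 37.3 CPM in the Plac8-led set (6 UMIs) and 30.7 CPM in dendritic-like cells (28 UMIs), and the intervals of these 3 overlapped. T- or NK-like cells were lower, at 12.2 CPM. Müller-like and bipolar-like cells had no Nlrp3 UMI, and rod-like cells stood at 0.410 CPM. Set against the floor of 3 counts, the level in Müller-like cells was at least 115-fold lower than in microglia-like cells. Microglia-like cells supplied 89.7% of all Nlrp3 UMIs found in classed NaIO3 cells.

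Pycard, the adaptor (chr7:127989708-127993867, minus strand), was spread more evenly over the immune classes. Its level was 289 CPM in microglia-like cells (279 to 299, 3481 UMIs), 218 CPM in the Plac8-led set, 189 CPM in T- or NK-like cells and 150 CPM in dendritic-like cells, each neighbour in this order overlapping the next. The dendritic-like level was 0.520 times the microglia-like level (0.436 to 0.617). Below the immune classes came bipolar-like cells with 11.6 CPM (8.33 to 15.7), Müller-like cells with 10.2 CPM and rod-like cells with 2.66 CPM. A Pycard UMI was seen in 741 of 1409 cells, and in 23.5% of 1125 cells after each was thinned to 1000 UMIs, against 0.354% of thinned rod-like cells.

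**Figure D1:**
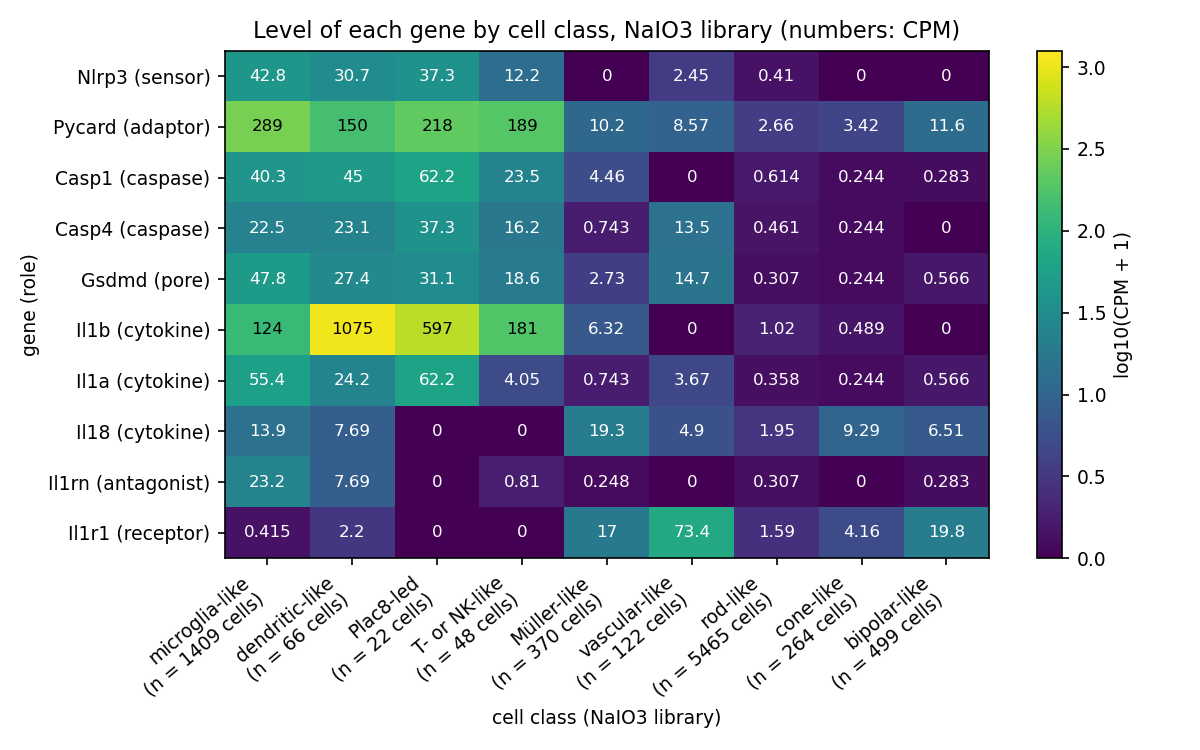
Heat map of the level of each gene (vertical axis, with its role) in 9 classes of the NaIO3 library (horizontal axis, with the number of cells), coloured by log10(CPM + 1) and printed with the CPM. Nlrp3, Pycard, Casp1, Casp4, Gsdmd, Il1b, Il1a and Il1rn stand highest in immune classes, whereas Il18 stands highest in Müller-like cells at 19.3 CPM and Il1r1 in vascular-like cells at 73.4 CPM.

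Casp1, the protease that matures IL-1β and IL-18 (chr9:5298517-5307265, plus strand), stood at 62.2 CPM in the Plac8-led set (10 UMIs), 45.0 CPM in dendritic-like cells (41 UMIs) and 40.3 CPM in microglia-like cells (36.8 to 44.0, 485 UMIs), with overlapping intervals. T- or NK-like cells held 23.5 CPM and Müller-like cells 4.46 CPM, the latter from 36 UMIs in 29 cells. Casp4, the neighbouring caspase gene (chr9:5308828-5336783, plus strand), reached 37.3 CPM in the Plac8-led set, 23.1 CPM in dendritic-like, 22.5 CPM in microglia-like and 16.2 CPM in T- or NK-like cells. Vascular-like cells also held Casp4, at 13.5 CPM (6.72 to 24.1, 11 UMIs), whereas no Casp1 UMI was found in them. Both caspase genes were thus counted in the same 4 immune classes, and in vascular-like cells Casp4 alone, on few UMIs.

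Gsdmd, the pore-forming substrate (chr15:75862327-75867408, plus strand), was at 47.8 CPM in microglia-like cells (44.0 to 51.9, 576 UMIs), 31.1 CPM in the Plac8-led set and 27.4 CPM in dendritic-like cells. It followed in T- or NK-like cells at 18.6 CPM and in vascular-like cells at 14.7 CPM (7.59 to 25.7, 12 UMIs). Free RNA was estimated from C1q transcripts, which rod-like cells held at 0.470%, Müller-like cells at 0.424% and vascular-like cells at 1.21% of the microglia-like level. At those shares, free RNA from microglia-like cells would give 0.474 Gsdmd and 0.223 Casp4 UMIs in vascular-like cells, where 12 and 11 were counted. In Müller-like cells it would give 1.64 Gsdmd, 1.38 Casp1 and 9.90 Pycard UMIs, where 22, 36 and 82 were counted. The estimate leaves out free RNA from other cells and cells joined in 1 droplet. The part of either in these counts was not tested. In rod-like cells the 8 genes other than Il18 and Il1r1 stood at 0.642% to 2.05% of the microglia-like level.

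Il1b, which encodes the secreted cytokine most closely tied to inflammasomes (chr2:129364570-129371139, minus strand), was highest in dendritic-like cells. Of 66 such cells 52 held Il1b, with 979 UMIs in all, at most 57 in 1 cell, and a level of 1075 CPM (1009 to 1144). The Plac8-led set followed at 597 CPM (484 to 729), although 52 of its 96 UMIs came from 1 cell. T- or NK-like cells stood at 181 CPM (158 to 206) and microglia-like cells at 124 CPM (118 to 130, 1493 UMIs in 200 cells). No neighbours in this order overlapped, but these intervals do not cover the uneven spread of Il1b UMIs between cells. The dendritic-like level was 8.67 times the microglia-like level (7.99 to 9.41). The 1409 microglia-like cells supplied 52.1% of the Il1b UMIs of classed cells, dendritic-like cells 34.2%, T- or NK-like cells 7.79% and the Plac8-led set 3.35%. No Il1b UMI was seen in vascular-like or bipolar-like cells, and the 51 UMIs of Müller-like cells lay in 6 cells, 23 of them in 1 cell.

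Among the 48 T- or NK-like cells, 15 held the 223 Il1b UMIs. These 15 cells had higher levels of class II and phagocyte genes than the other 33: H2-Ab1 stood at 3694 against 508 CPM, Cd74 at 5702 against 803 CPM, and Spp1 at 860 against 60.7 CPM. Nkg7, a granule gene of cytotoxic lymphocytes, stood at 592 against 998 CPM, and the median depth was 40924 against 17912 UMIs. The part of cells joined in 1 droplet in this level was not tested.

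The 686 NaIO3 cells with mixed markers held much of the cytokine RNA. In them lay 2280 of 5189 Il1b UMIs of all kept NaIO3 cells (43.9%) and 386 of 970 Nlrp3 UMIs (39.8%). In 53 C1q-positive cells with more dendritic than microglia markers Il1b stood at 589 CPM, in 40 of the cells and with up to 130 UMIs in 1 cell. In 143 C1q-positive cells with T or NK markers, whose median depth was 46036 UMIs, it stood at 149 CPM. Both of these kinds passed the immune gate alone, and they held 1016 and 1164 of the Il1b UMIs. The levels given for the classes leave all 686 cells out.

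Shares of cells with an Il1b UMI showed the same order at 1 depth. After thinning to 1000 UMIs, Il1b was found in 34 of 66 dendritic-like cells (51.5%, 38.9 to 64.0), in 54 of 1125 microglia-like cells (4.80%, 3.63 to 6.22) and in 5 of 4804 rod-like cells (0.104%). The median depths before thinning were 13636, 3566 and 2661 UMIs, and shallower cells were left out (0, 284 and 661 cells). Without thinning the shares were 78.8%, 14.2% and 0.366%. Nlrp3 was found in 3.11% of thinned microglia-like cells (2.18 to 4.30), in 18.7% of them unthinned, and in 0.0833% of thinned rod-like cells.

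Within the microglia-like class Il1b was concentrated in few cells. At 10000 UMIs per cell, 393 cells remained, 131 of them with Il1b, and 22 cells held 50% of its UMIs. For each gene, the 39 richest of the 393 cells held 66.5% of Il1b, 65.4% of Il1a, 73.8% of Il1rn and 59.0% of Tnf UMIs, compared with 45.0% for Nlrp3, 26.1% for Pycard and 18.4% for the class-defining gene C1qa. Sparse genes also reach high shares: Il18, with a mean of 0.13 UMIs per cell, had 88.2% and Casp4, with 0.262, had 54.4%, and the mean of Il1rn was 0.272. The variance of the counts was 8.03 times their mean for Il1b, 3.20 times for Il1a and 2.40 times for Il1rn, beside 1.12 for Nlrp3, 1.15 for Il18 and 1.11 for Casp4. In dendritic-like cells at that depth, 38 of 50 held Il1b with a mean of 10.9 UMIs over the 50, and the richest 5 cells held 29.4%. The parts of the machinery were found with and without Il1b: Nlrp3 in 44.3% of the 131 microglia-like cells with Il1b (35.6 to 53.2) and in 34.7% of the 262 without it (29.0 to 40.8), Casp1 in 27.5% and 37.4%, Casp4 in 27.5% and 19.1%, and Pycard in 87.8% and 86.6%. In each of these pairs the intervals overlapped at this depth, which was chosen after seeing the data. At lower depths those of Casp4 did not: at 1000 UMIs it was found in 11.1% of the 54 cells with Il1b (4.19 to 22.6) and 1.40% of the 1071 without (0.786 to 2.30), and at 2000 UMIs in 12.9% (6.85 to 21.5) and 3.55% (2.26 to 5.28).

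Depth moved with these levels and is given beside them. In the 499 microglia-like cells of at least 5000 UMIs, Il1b stood at 138 CPM against 27.3 CPM in the 910 below, a ratio of 5.04 (3.69 to 7.05). Il1a stood at 62.3 against 6.67 CPM, giving a ratio of 9.34 (5.05 to 19.6), and Nlrp3 at 46.4 against 17.3 CPM, giving a ratio of 2.67 (1.80 to 4.14). Il1b did not climb steadily with depth: it was highest, at 211 CPM, in cells of 5000 to 10000 UMIs and stood at 114 CPM in cells of 40000 or more. Pycard (0.980), Gsdmd (1.32), Il1rn (1.10) and Casp1 (0.765) had ratios nearer to 1. Casp4 had a ratio of 1.999 (1.24 to 3.43), just under 2 times. Of 8 genes that passed the minimum level of 20 CPM and 20 UMIs, 3 were at least 2 times higher in the deep cells and 0 at least 2 times lower, where 20.5% and 1.8% of all genes were. The early-response genes Fos and Jun (ratios 11.1 and 10.8) and Tnf (31.9) were also higher in the deep cells, and C1qa slightly so (1.12, 1.09 to 1.15). Whether deep cells differ in state or in RNA capture was not tested.

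**Figure D2:**
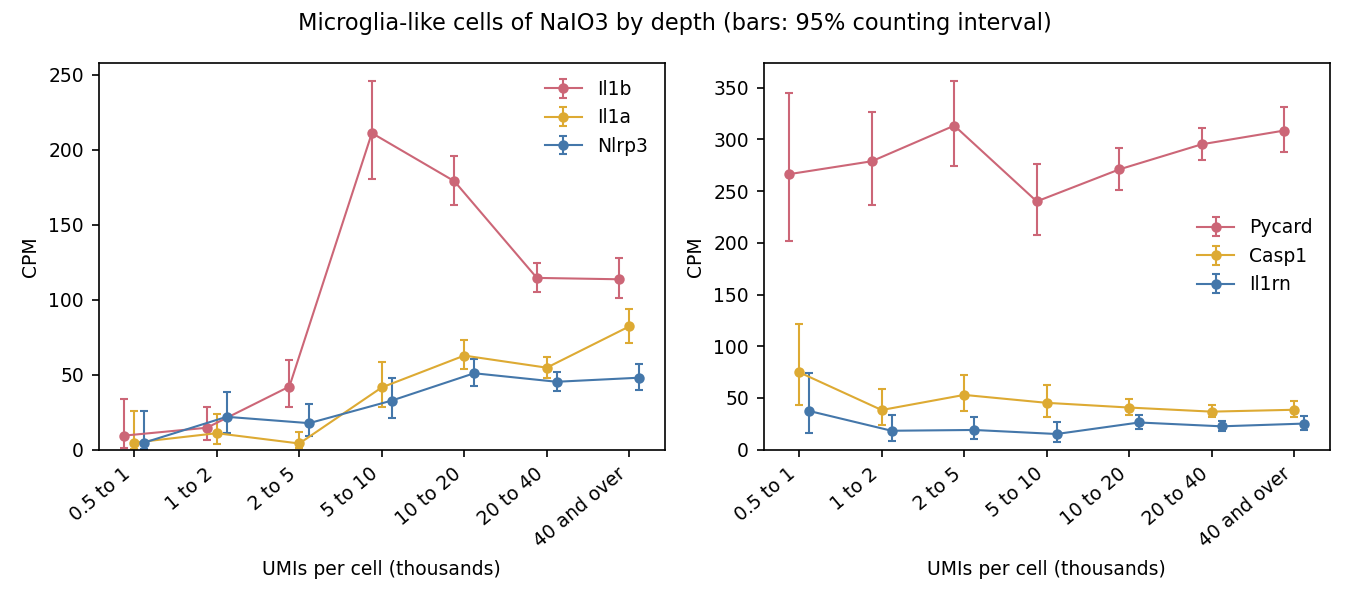
Level in CPM of Il1b, Il1a and Nlrp3 (left) and of Pycard, Casp1 and Il1rn (right) in microglia-like cells of the NaIO3 library in 7 bins of UMIs per cell, as points with exact 95% Poisson intervals as bars. Il1b stands at 9.35 CPM in the shallowest bin and 211 CPM in the fourth, whereas Pycard lies between 240.1 and 313 CPM in all 7.

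Il1a, the sister cytokine that is active without cleavage by caspase-1 (chr2:129299610-129309972, minus strand), was not highest where Il1b was. Microglia-like cells held 667 UMIs at 55.4 CPM (51.3 to 59.7) and supplied 92.3% of Il1a UMIs of classed cells. The Plac8-led set stood at 62.2 CPM, with 9 of its 10 UMIs in 1 cell. Dendritic-like cells stood lower, at 24.2 CPM (22 UMIs), which was 0.436 times the microglia-like level (0.272 to 0.666), although their Il1b level was the highest. The ratio of the Il1b level to the Il1a level thus differed between the classes, and the direction of the Il1a difference depended on weighting: averaged per cell rather than over summed UMIs, the log2 ratio was 0.045.

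Il18, the other caspase-1 substrate among the cytokines (chr9:50554827-50581840, plus strand), was highest in Müller-like cells by CPM, with microglia-like cells next. Müller-like cells held 156 UMIs in 121 cells, at 19.3 CPM (16.4 to 22.6). Microglia-like cells stood at 13.9 CPM (11.9 to 16.2), followed with overlapping intervals by cone-like cells at 9.29 CPM, dendritic-like cells at 7.69 CPM and bipolar-like cells at 6.51 CPM. Rod-like cells were at 1.95 CPM, 13.9% of the microglia-like level. After thinning to 1000 UMIs, Il18 was found in 1.76% of 340 Müller-like cells, 1.16% of 1125 microglia-like cells and 0.167% of 4804 rod-like cells. Microglia-like cells supplied 38.6% of Il18 UMIs in classed cells, Müller-like cells 35.9%, rod-like and cone-like cells 8.74% each and bipolar-like cells 5.29%. The Müller-like level was 1.39 times the microglia-like level (1.11 to 1.73), and this order did not hold with TMM or median-of-ratios scaling, where the log2 ratios were -0.140 and -0.136.

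Il1rn, the receptor antagonist (chr2:24336853-24351494, plus strand), came mostly from microglia-like cells, which supplied 94.3% of its UMIs. Their level was 23.2 CPM (20.6 to 26.1, 280 UMIs), against 7.69 CPM in dendritic-like cells (7 UMIs), a ratio of 0.331 (0.132 to 0.690). No Il1rn UMI was seen in the Plac8-led set or in vascular-like cells. The class with the highest Il1b level therefore had a lower Il1rn level than microglia-like cells did, on 7 UMIs. This did not extend to the 53 C1q-positive cells with more dendritic than microglia markers that were left out of the classes. Their Il1b level was 589 CPM and their Il1rn level 26.7 CPM (19.5 to 35.6).

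Il1r1, the signalling receptor (chr1:40225080-40317257, plus strand), was found mostly outside the immune classes. Vascular-like cells stood at 73.4 CPM (56.0 to 94.5, 60 UMIs in 29 of 122 cells). Bipolar-like cells followed with 19.8 CPM (15.4 to 25.03, 70 UMIs in 47 cells) and Müller-like cells with 17.0 CPM (14.2 to 20.1, 137 UMIs in 89 cells), whose intervals overlapped. Cone-like cells stood at 4.16 CPM, dendritic-like cells at 2.20 CPM (2 UMIs) and rod-like cells at 1.59 CPM (1.08 to 2.25). The interval of cone-like cells (2.42 to 6.65) lay above that of rod-like cells, and T- or NK-like cells and the Plac8-led set had none. Microglia-like cells held 5 Il1r1 UMIs, or 0.415 CPM (0.135 to 0.969), and supplied 1.55% of the total, against 42.5% from Müller-like, 21.7% from bipolar-like and 18.6% from vascular-like cells. After thinning to 1000 UMIs, Il1r1 was found in 8.33% of 120 vascular-like, 2.35% of 340 Müller-like and 2.02% of 496 bipolar-like cells, and in 0 of 4804 rod-like cells, which allows up to 0.0624% of them to hold a UMI at that depth. Unthinned, 23 of 5465 rod-like cells held one (0.421%). The Müller-like level was 40.9 times the microglia-like level (17.1 to 128). The classes richest in IL-1 cytokine RNA and those richest in receptor RNA were different ones in this library.

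The receptor of bipolar-like cells sat in a subset. Bipolar cells, which carry signals from photoreceptors to ganglion cells, were split at 300 CPM of Prkca, a gene of rod bipolar cells, a limit chosen after seeing these data. In the NaIO3 library Il1r1 stood at 54.8 CPM in 113 cells below that limit (50 UMIs) and at 7.63 CPM in 386 cells above it (20 UMIs), a ratio of 7.18 (4.20 to 12.7). In PBS it stood at 63.5 CPM in 44 Prkca-low cells (20 UMIs) and at 0 in 18 Prkca-high cells, at least 3.74-fold higher in the former. Il1rap, the co-receptor that IL1R1 needs to signal, showed the opposite order: in NaIO3 3.29 CPM in Prkca-low and 230 CPM in Prkca-high cells, and in PBS 6.35 and 192 CPM. Receptor and co-receptor RNA were thus highest in different bipolar-like cells in both libraries. Of the NaIO3 cells 33 and of the PBS cells 2 lay within a factor of 2 of the Prkca limit.

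**Figure D3:**
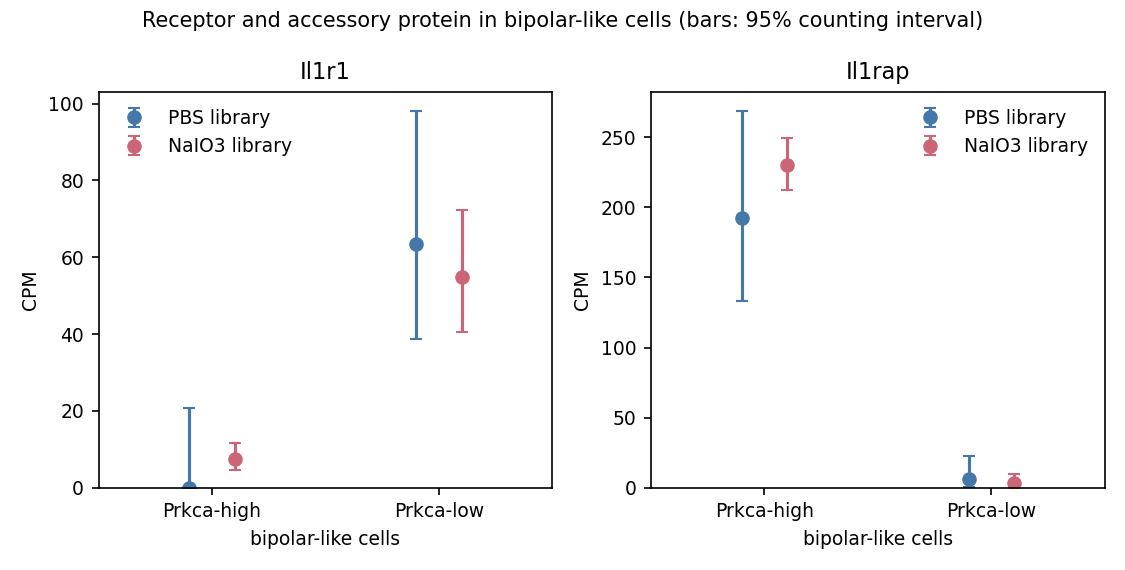
Level in CPM of Il1r1 (left) and Il1rap (right) in bipolar-like cells above and below 300 CPM of Prkca, for the PBS and NaIO3 libraries, as points with exact 95% Poisson intervals as bars. Il1r1 stands at 63.5 and 54.8 CPM in the Prkca-low cells of PBS and NaIO3, and Il1rap at 192 and 230 CPM in the Prkca-high cells.

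Bipolar-like cells with an Il1r1 UMI, 12 in PBS and 47 in NaIO3, were compared with those without one. By a rule set after seeing values, the 5 genes with the highest smaller fold over both libraries (50 CPM added) were Gsg1, Slit2, Scgn, Cdh11 and Cacna1h. Gsg1 was 3.43 times higher in PBS and 3.52 times in NaIO3, Slit2 3.51 and 2.87 times, and Scgn, which encodes the calcium-binding protein secretagogin, 2.77 and 3.43 times. Prkca stood at 10.7 against 1149 CPM in PBS and at 387 against 1792 CPM in NaIO3.

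The NaIO3 and PBS libraries were then set side by side within each class. For microglia-like cells this comparison rested on 10 PBS cells, in which 1 UMI was worth 31.4 CPM. Of the 8 genes that passed the minimum level, 0 were at least 2 times higher and 0 at least 2 times lower in NaIO3, where 8.16% and 33.3% of all genes were. Casp1, Casp4 and Il1rn are among the 8 and had no PBS UMI. By the rule used they could not count as lower. With PBS set at the floor of 3 counts, their NaIO3 levels were too low to count as higher. Pycard, with 13 PBS UMIs, stood at 289 CPM in NaIO3 and 409 CPM in PBS, a ratio of 0.707 (0.413 to 1.33). Nlrp3 had 515 UMIs against 1, a ratio of 1.36 (0.243 to 53.8), Il1b 1493 against 2, a ratio of 1.97 (0.545 to 16.3), Il1a 667 against 2, a ratio of 0.881 (0.243 to 7.29), and Gsdmd 576 against 3, a ratio of 0.507 (0.173 to 2.47). Casp1, Casp4, Il18 and Il1rn had no PBS UMI, and their NaIO3 levels lay below the PBS floor of 94.3 CPM, so no fold is given for them. At this depth no difference between the libraries was detectable for any of these 9 genes in microglia-like cells, and intervals such as that of Nlrp3 span large differences in both directions. The direction also followed the scaling: TMM moved the log2 ratios by 0.81, and with it Nlrp3 and Il1b, 2 of the 8 genes, were at least 2 times higher. Il1r1, below the minimum, had 5 UMIs against 1, a ratio of 0.0132 (0.00148 to 0.625).

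**Figure D4:**
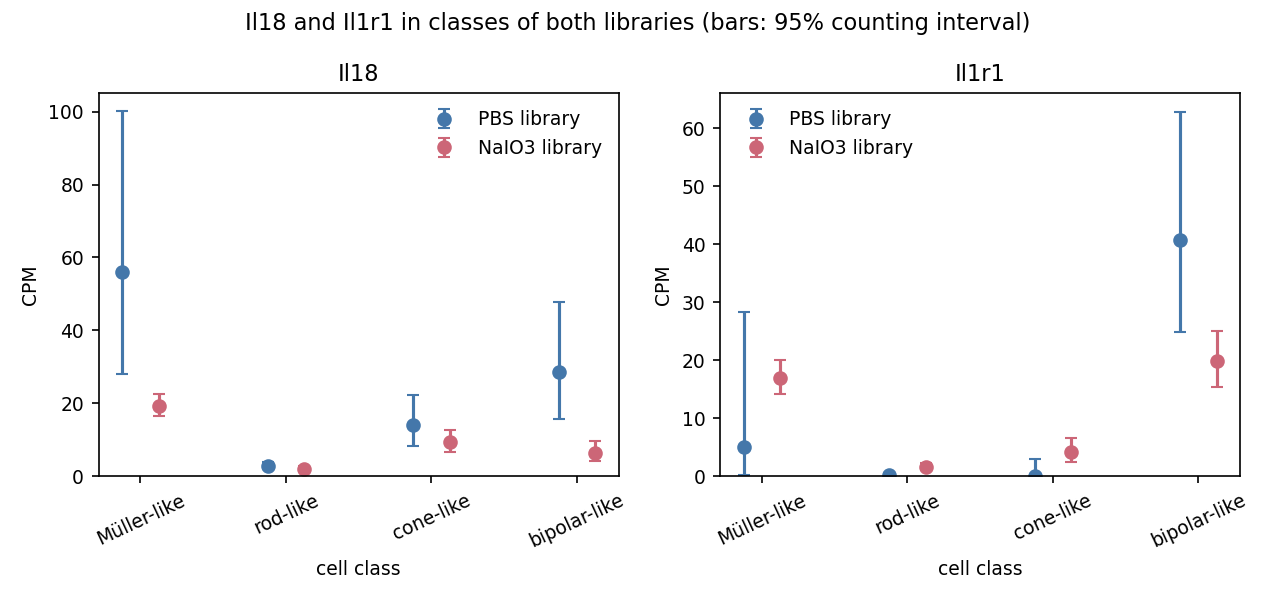
Level in CPM of Il18 (left) and Il1r1 (right) in 4 classes of the PBS and NaIO3 libraries, as points with exact 95% Poisson intervals as bars. Il18 stands at 55.9 and 19.3 CPM in Müller-like cells of PBS and NaIO3, and Il1r1 at 40.7 and 19.8 CPM in bipolar-like cells.

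Il18 was lower in Müller-like and bipolar-like cells of the NaIO3 library. In Müller-like cells it stood at 19.3 CPM in NaIO3 and 55.9 CPM in PBS (156 and 11 UMIs), a ratio of 0.346 (0.188 to 0.707). The Müller-like cells of the libraries also differed in depth (median 19171 UMIs in NaIO3 and 6402.5 in PBS), in the median share of UMIs from rod markers (1.34% and 0.137%) and in that from Müller markers (1.74% and 3.103%), and the part of these differences in the ratio was not tested. Il18 was the 1 gene of the set that passed the minimum there, where 16.4% of all genes were at least 2 times higher and 15.9% lower. It passed through its PBS level alone, so it could not have counted as higher. In bipolar-like cells it stood at 6.51 against 28.5 CPM (23 and 14 UMIs), a ratio of 0.229 (0.113 to 0.480). In cone-like and rod-like cells the ratios were 0.655 (0.365 to 1.22) and 0.681 (0.434 to 1.06), with intervals that reached 1, and these directions turned under other settings: the log2 ratio was 0.28 in rod-like cells with stricter gates and 0.13 in cone-like cells with clusters. When Müller-like cells were weighted equally, the log2 ratio of Il18 was -0.72, less than 2 times lower.

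Il1r1 was also lower in bipolar-like cells of the NaIO3 library, at 19.8 against 40.7 CPM (70 and 20 UMIs), a ratio of 0.487 (0.293 to 0.845). With Il18 it made 2 of 2 tested genes at least 2 times lower, where 7.53% of all genes were and 9.16% were higher. Both passed the minimum of 20 CPM through their PBS levels alone, so neither could have counted as higher. The share of Prkca-low cells differed between the libraries, 71.0% of bipolar-like cells in PBS and 22.6% in NaIO3. Within Prkca-low cells the Il1r1 ratio was 0.863 (0.504 to 1.53), while that of Il18 was 0.370 (0.166 to 0.827). With TMM 1 of the 2 genes was at least 2 times lower, and with no limit on mitochondrial reads 0 were counted. In that last setting the log2 ratio of Il18 was still -1.55, but Il18 missed the minimum level. In Müller-like cells Il1r1 had 137 UMIs in NaIO3 against 1 in PBS, a ratio of 3.34 (0.589 to 133).

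In rod-like and cone-like cells 0 genes of the set passed the minimum level, where 10.4% and 11.6% of all genes were at least 2 times higher and 2.9% and 4.99% lower. Below it, rod-like cells held 31 Il1r1 UMIs in NaIO3 and 3 in PBS, a ratio of 9.26 (2.89 to 47.3), and 20 Il1b UMIs against 1, a ratio of 17.9 (2.87 to 743). The microglial transcript C1qa moved in the same direction in rod-like cells, from 1.71 CPM in PBS to 18.8 CPM in NaIO3. At the C1q share of 0.470%, free RNA from microglia-like cells would give 11.4 of the 20 Il1b UMIs (12.2 to 30.9 by counting error). That estimate leaves out free RNA from other classes. Dendritic-like cells held 979 and T- or NK-like cells 223 Il1b UMIs, beside 1493 in microglia-like cells. The part of free RNA in the 20 UMIs was not tested. Pycard stood at 2.66 CPM in NaIO3 and 2.46 CPM in PBS rod-like cells. Cone-like cells held 17 Il1r1 UMIs in NaIO3 and 0 in PBS, at least 1.76-fold higher.

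Between the classes of the NaIO3 library the set differed more. Against microglia-like cells, 8 genes passed the minimum level in dendritic-like cells, of which Il1b was at least 2 times higher and Il1a and Il1rn at least 2 times lower, where 7.17% and 14.5% of all genes were. Pycard (0.520, 0.436 to 0.617) and Gsdmd (0.574, 0.368 to 0.856) fell short of 2 times lower, but their intervals lay below 1. Nlrp3 (0.719, 0.473 to 1.05), Casp4 (1.02, 0.624 to 1.60) and Casp1 (1.12, 0.792 to 1.54) lay within 2 times, with intervals that held 1. By the measure of 2 times, dendritic-like cells thus differed in cytokine and antagonist RNA and not in sensor or caspase RNA. In the Plac8-led set Il1b was the 1 gene of 8 at least 2 times higher, at 4.82 times (3.88 to 5.92), and 0 were lower, where 11.1% and 14.3% of all genes were.

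Müller-like cells had at least 2 times lower levels for 8 of 8 genes that passed and 0 were higher, where 18.0% and 35.5% of all genes were, from 9.03-fold lower for Casp1 to 93.8-fold lower for Il1rn and at least 115-fold lower for Nlrp3. The 4 neuronal classes in sum also had lower levels for 8 of 8 genes and 0 were higher, where 22.0% and 40.2% of all genes were. There the differences ran from 61.2-fold lower for Casp4 to 153-fold lower for Il1b. In both comparisons all 8 reached the minimum of 20 CPM through microglia-like cells alone, so none of them could count as higher. Il18 and Il1r1 did not pass the minimum in either comparison. Their Müller-like levels were 19.3 and 17.0 CPM, against 13.9 and 0.415 CPM in microglia-like cells. Neurons held 3.79-fold less Il18 (2.95 to 4.91) and 10.5 times the Il1r1 level (4.35 to 32.8) than microglia-like cells.

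Levels also varied over the range of microglia-like cells. The 499 cells of at least 5000 UMIs were ranked by the share of their UMIs from a marker set, and the upper 125 were compared with the other 374. These are ranges of a score and not cell types. In the cells richest in lipid and phagocyte genes (Gpnmb, Spp1, Fabp5, Lgals3, Lpl and Cd36), Il1b stood at 77.9 against 163 CPM, giving a ratio of 0.477 (0.414 to 0.547), and Il1a at 35.8 against 73.6 CPM, giving a ratio of 0.486 (0.393 to 0.596). Nlrp3 was at 35.5 against 51.0 CPM, giving a ratio of 0.695 (0.557 to 0.860). Il1rn went the other way, at 38.9 against 16.9 CPM, giving a ratio of 2.30 (1.78 to 2.97). Il18 stood at 18.0 against 13.1 CPM, 1.37 times (0.973 to 1.93). Il1b and Il1a RNA was thus lower and antagonist RNA higher at this end of the range, with 21 cells within 10% of the limit and median depths of 20875 and 16232 UMIs.

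Cells richest in class II genes showed higher Il1b, at 254 against 97.2 CPM, giving a ratio of 2.61 (2.35 to 2.90), with Il1a at 0.982 times (0.819 to 1.17), Nlrp3 at 0.961 times (0.777 to 1.18) and Pycard at 0.747 times (0.683 to 0.816) the level of the rest. Here 9 cells lay within 10% of the limit, and class II genes were also used as dendritic markers, so cells at the border of the dendritic gate cannot be told apart from class II-rich microglia-like cells. Cells richest in interferon-response genes had more Casp4, at 33.9 against 21.3 CPM (1.59 times, 1.20 to 2.09), and more Gsdmd (1.36 times, 1.12 to 1.66), but less Il1rn (0.529 times, 0.351 to 0.773), with Il1b at 1.04 times (0.918 to 1.18). In that comparison 44 cells lay near the limit. Cells richest in resident microglia genes had more Il1a, at 90.7 against 53.9 CPM (1.68 times, 1.42 to 1.98), and more Il18, at 22.5 against 12.3 CPM (1.83 times, 1.29 to 2.57), with Il1b at 1.05 times (0.925 to 1.18) and 62 cells near the limit. Cells richest in cell-cycle genes had Il1b at 1.03 times and Il1a at 1.34 times the level of the rest, and those richest in monocyte genes 0.748 and 1.29 times.

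**Figure D5:**
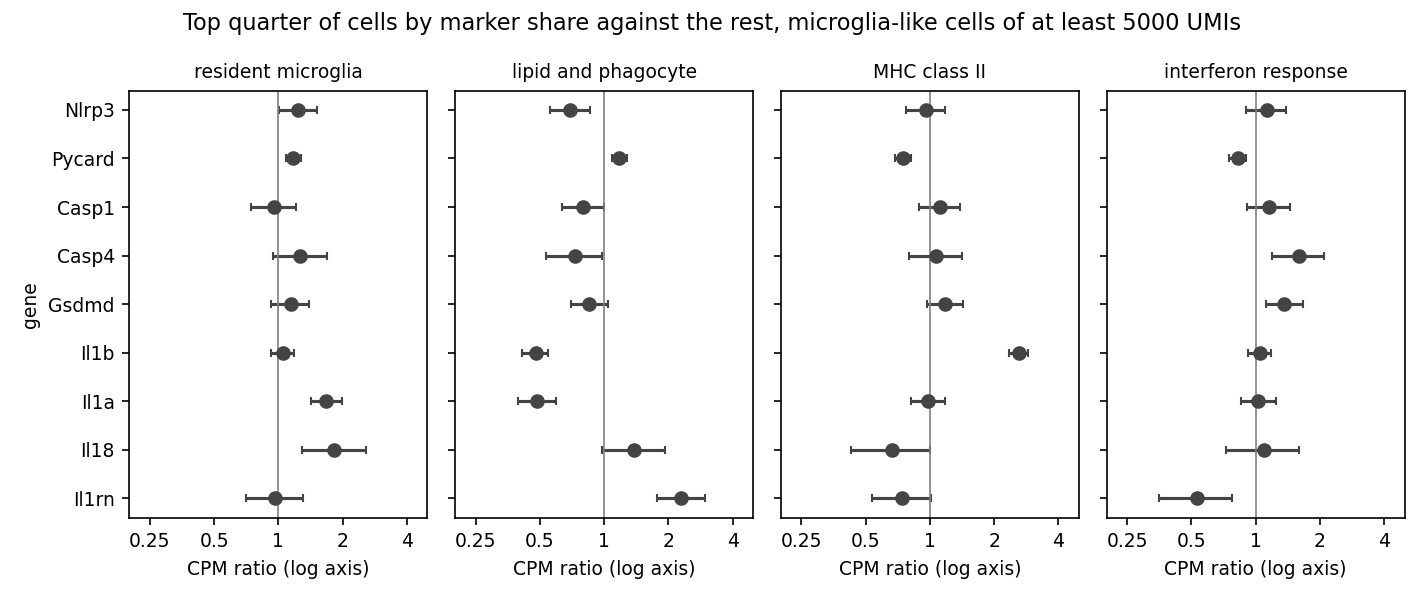
Ratio of each gene's level in the upper 125 to that in the other 374 microglia-like cells of at least 5000 UMIs in the NaIO3 library, on a log axis, for 4 of the marker sets, as points with exact 95% conditional binomial intervals as bars. Il1b lies at 0.477 for lipid and phagocyte genes and at 2.61 for class II genes, and Il1rn at 2.30 and 0.740.

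Of 67 other genes of the pathway counted in the files (other sensors, NLRP3 regulators, pore and release genes, other IL-1 family ligands and receptors, and IL-1 receptor signalling), 35 passed the minimum in dendritic-like against microglia-like cells, with 5 at least 2 times higher and 8 lower, where 7.17% and 14.5% of all genes were. Nfkb1, a subunit of NF-kB, stood at 228 against 86.6 CPM, and Il1r2, the decoy receptor that binds IL-1 without signalling, at 20.9 against 1.41 CPM, giving a ratio of 14.8 (7.27 to 30.3). Il1r2 reached 74.6 CPM in the Plac8-led set. Cd14, the lipopolysaccharide co-receptor, stood lower in dendritic-like cells, at 14.3 against 140 CPM, as did Il18bp, which encodes the protein that captures IL-18, at 0.156 times. Among other sensors, microglia-like cells held Naip2 at 84.1 CPM, Aim2 at 70.3 CPM and Naip5 at 25.9 CPM.

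In Müller-like cells 34 of these genes passed, 4 higher and 19 lower than in microglia-like cells, where 35.5% and 18.0% of all genes were. Il33, an IL-1 family alarmin, stood at 306 against 4.07 CPM, and Il1rap at 25.4 against 7.80 CPM. In the 4 neuronal classes in sum, 5 of 34 were higher and 20 lower, where 40.2% and 22.0% of all genes were, and Gsdme, a gasdermin opened by caspase-3, stood at 84.5 against 13.9 CPM. In cone-like cells Gsdme reached 301 CPM. Ligand, receptor and pore genes of this family thus had their highest levels in different retinal classes.

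Between the libraries, Müller-like cells had 6 of 28 pathway genes at least 2 times higher and 5 lower in NaIO3, where 16.4% and 15.9% of all genes were. Gbp2, an interferon-induced GTPase, stood at 61.8 against 10.2 CPM (6.08 times, 1.67 to 50.4) and Nfkbiz, an NF-kB cofactor, at 92.9 against 25.4 CPM (3.66 times, 1.56 to 11.3). Il33 stood at 306 against 671 CPM (0.456 times, 0.383 to 0.548), and Irak2, a kinase of IL-1 receptor signalling, at 0.383 times (0.249 to 0.620). In bipolar-like cells Il1rap was the 1 of 17 higher, at 172 against 73.2 CPM (2.35 times, 1.68 to 3.38; 9.16% of all genes were higher), in a library with more Prkca-high cells, and within those cells the ratio was 1.20 (0.848 to 1.75). Rod-like cells had 1 of 14 higher and 1 lower, where 10.4% and 2.9% of all genes were, the latter being Tnfaip3, an inhibitor of NF-kB signalling, at 92.3 against 211 CPM (0.437 times). Microglia-like cells had 3 of 35 higher and 12 lower, where 8.16% and 33.3% of all genes were. Genes with no PBS UMI could not count as lower there.

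The genes whose levels ran most like those of 4 of the set across 7 NaIO3 classes of at least 50 cells, by Pearson's r of log2(CPM + 10) over 11849 genes, are given as a description. The 7 points share 1 library. For Nlrp3 the first was Apbb1ip (r = 0.9997), followed by Rasgrp1, Arhgap11a, Cd300c2 and F630028O10Rik. For Il1b they were Gng10 (r = 0.999), Ptpn22, Clec2i, Il7r and Rnase6. For Il18 they were Spred1 (r = 0.971), Fads1, Etv5, Hdac1 and Itgav, and for Il1r1 Tgoln1 (r = 0.991), Tcf4, Rhoj, Mut and Dab2ip.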

How the data were processed

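The authors deposited, for both libraries, a matrix of raw UMI counts from Cell Ranger 3.0.2 per the file headers and on build mm10 per the submitters' processing notes. Gene positions are from GENCODE M21. Groups came from the treatment labels. The genes and lists were chosen with earlier results of these data known.

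Barcodes with fewer than 500 UMIs, fewer than 300 genes or over 15% mitochondrial UMIs were left out, as were doublets (expected rate 6%). Each cell was assigned by the number and UMI share of fixed marker genes. Cells passing several gates or holding mixed markers were set aside. Python 3.11.15 with numpy 2.4.6, scipy 1.17.1, pandas 2.3.3 and scanpy 1.11.5 was used.

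Counts were summed per class and divided by the class total (CPM). Levels have exact Poisson, ratios exact conditional binomial, and shares exact (Clopper-Pearson) 95% intervals. A count of 0 was set at a floor of 3 counts. A gene counted as higher or lower at a ratio of 2, if it had 20 CPM in either sum and 20 UMIs in all. No test is possible with 1 library per group, so no p-value was computed. 1 UMI was worth 0.0830 CPM in NaIO3 and 31.4 CPM in PBS microglia-like cells. All members are named, with the 5 genes most alike in pattern. Pathway genes were named from those with the highest CPM of each list, at 20 CPM or more in a class of at least 50 cells. Those at least 2 times higher or lower between the libraries in a class were added. The scripts were tested on simulated data.

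The alternatives were clusters in place of gates, other cell filters, stricter gates, TMM (edgeR 4.0.16, R 4.3.3) and median-of-ratios scaling, CPM averaged over cells, no minimum level and other thinning depths. Cells of at least 5000 UMIs and thinning to 10000 UMIs were added after seeing the data.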

Additional observations from a re-analysis of the deposited data

Results flagged for a closer look

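The ratio of Il1r1 between the NaIO3 and PBS libraries went in different directions by class. It was 9.26 in rod-like cells (31 against 3 UMIs), 0.0132 in microglia-like cells (5 against 1 UMIs) and 0.487 in bipolar-like cells (70 against 20 UMIs). In microglia-like cells 1 PBS UMI was worth 31.4 CPM. Prkca-low cells were 71.0% of bipolar-like cells in PBS and 22.6% in NaIO3, and within them the Il1r1 ratio was 0.863 (0.504 to 1.53). The difference between the classes was not tested, and it has no replicate check.

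Il1b was found in NaIO3 cells outside the classes that were compared. It stood at 181 CPM in T- or NK-like cells and at 133 CPM in other immune cells that fitted no single class. Among cells set aside for mixed markers it stood at 149 CPM in C1q-positive cells with T or NK markers. It stood at 589 CPM in those with more dendritic than microglia markers, and at 114 CPM in immune cells that also carried another gate or rod markers. Whether droplets with more than 1 cell contribute was not tested.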

How the results depend on the processing

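No paired analysis was possible because each group has 1 library. With clusters in place of gates, Il1b stood at 160 CPM in microglia-like and 905 CPM in dendritic-like cells and Il18 at 15.3 CPM in Müller-like cells. In microglia-like cells Il1b was 131 CPM with stricter cell filters, 130.5 CPM with stricter gates and 138 CPM in cells of at least 5000 UMIs. The log2 ratio of Il1b in dendritic-like over microglia-like cells, 3.12 as reported, was 2.50 with clusters, 2.96 in the deep cells and 4.13 per cell. That of Il18 in Müller-like over microglia-like cells, 0.47 as reported, was 0.12 with clusters, -0.140 with TMM, -0.136 with median-of-ratios scaling and 1.12 per cell. The log2 ratio of Il1a in dendritic-like over microglia-like cells reversed to 0.045 per cell.

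Counts of genes past 2 times also moved. For NaIO3 over PBS in microglia-like cells the count higher was 1 with clusters, 1 with no mitochondrial limit, 2 with TMM, 2 with median-of-ratios scaling and 1 per cell, and the count lower was 1 with stricter gates and 1 with no minimum level. In Müller-like cells it was 2 higher and 0 lower per cell and 1 higher with no minimum, and in rod-like cells 6 higher with no minimum. In bipolar-like cells the count was 1 lower with TMM and 0 lower with no mitochondrial limit, where Il18 (log2 ratio -1.55) missed the minimum level. Dendritic-like over microglia-like gave 2 higher with no minimum, and 1 lower with clusters and 1 per cell. Müller-like over microglia-like gave 2 higher per cell and 1 with no minimum, and neurons 1 higher with no minimum.

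The share of microglia-like cells with Il1b was 2.63% at 500, 12.6% at 2000 and 33.3% at 10000 UMIs, and of dendritic-like cells 65.6% at 2000 and 76.0% at 10000 UMIs. Nlrp3 was found in 7.41% of microglia-like cells with Il1b at 1000 UMIs and in 44.3% at 10000 UMIs. The causes were not tested. Under the other settings 223 of 261 recomputed summary values and 553 of 630 values of single genes moved by less than their counting interval or, for counts of genes, by less than 1.5 times.

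TMM moved the median log2 ratio of all genes by 0.81 in microglia-like cells, by -0.37 in rod-like, -0.13 in cone-like and 0.15 in Müller-like cells between the libraries, and by -0.61 in Müller-like and in neuronal over microglia-like cells. Of the genes past 2 times in either direction, the share that was higher in NaIO3 went from 19.7% to 54.5% in microglia-like, from 78.1% to 36.8% in rod-like, from 69.9% to 56.3% in cone-like and from 50.7% to 62.1% in Müller-like cells. It went from 66.4% to 41.6% for Müller-like and from 64.6% to 44.1% for neuronal over microglia-like cells. The depth of 10 PBS microglia-like cells limits every difference between the libraries in that class.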
